A study of Mus musculus with 3 samples.

Results

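The Zic gene pairs are 2 short stretches of the mouse genome given for a pair of neighbouring Zic genes each, Zic5 with Zic2 on chromosome 14 and Zic1 with Zic4 on chromosome 9. Which genes the windows hold was taken as given and was not checked against an mm9 annotation. Their members are the deposited binding intervals (peaks) of Ring1B and Zrf1 that overlap chromosome 14 from 122840000 to 122920000 or chromosome 9 from 91200000 to 91310000 (build mm9). The windows were set by gene position, but they were chosen with earlier results of these data known. They held 21 of the 11790 Ring1B intervals and 0 of the 11647 Zrf1 intervals, 21 of 23437 in all. Chromatin immunoprecipitation followed by sequencing (ChIP-seq) had been done in untreated neural progenitor cells that were made in culture from E14TG2a, a mouse embryonic stem cell line, and kept in N2 medium with EGF and FGF2. There were 3 libraries, with antibodies against Ring1B and Zrf1, both made in the Di Croce laboratory, and with rabbit IgG as control. Each antibody had 1 library from 1 cell line, so no value below carries an error between samples, and the IgG library was not analysed here. The lists give positions only, so neither the read depth nor the identity of the cells could be checked from them.

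Zic genes encode zinc-finger transcription factors of the neural plate, the dorsal neural tube and the cerebellum, and loss of ZIC2 in humans is a known cause of holoprosencephaly, a failure of the forebrain to divide. Ring1B, encoded by Rnf2, is the catalytic subunit of Polycomb repressive complex 1, which places ubiquitin on histone H2A at silent developmental genes, often over CpG-rich promoters. Zrf1, encoded by Dnajc2, is a chaperone-related protein known to bind ubiquitylated H2A and to displace that complex when genes are switched on. The comparison of the lists asked where the profiles of Zrf1 and Ring1B coincide in neural progenitors.

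Promoters are shown for Zic5 and Zic1, 1 gene of each pair, because Ring1B is often found over CpG-rich promoters and these differ in CpG content. They are the 250 bases before the listed start of each gene, from RefSeq (build GRCm38.p6), read 5′ to 3′ on the gene's own strand. Capitals mark each CG dinucleotide. Zic5 is at chr14:122465659-122465908 and Zic1 at chr9:91365769-91366018, both on the minus strand. These positions belong to another build than the intervals and cannot be set against them, so whether an interval covers either promoter was not determined.
Zic5: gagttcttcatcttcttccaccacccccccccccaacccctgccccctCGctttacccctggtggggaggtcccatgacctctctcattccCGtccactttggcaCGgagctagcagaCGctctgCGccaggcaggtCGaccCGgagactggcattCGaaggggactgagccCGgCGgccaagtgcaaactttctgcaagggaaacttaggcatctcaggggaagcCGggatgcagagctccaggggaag
Zic1: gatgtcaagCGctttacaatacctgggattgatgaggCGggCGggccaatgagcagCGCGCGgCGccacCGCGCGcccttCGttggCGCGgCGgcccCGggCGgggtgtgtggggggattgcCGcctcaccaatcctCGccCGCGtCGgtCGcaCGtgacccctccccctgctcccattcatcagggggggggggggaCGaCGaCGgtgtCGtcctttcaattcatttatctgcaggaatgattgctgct

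The Zic1 promoter was the richest in CpG of the 3 that had an entry, which were those of Zic1, Zic4 and Zic5 of the 4 genes. It held 27 CG dinucleotides, at an observed-to-expected CpG ratio of 0.995, and 8.56% of the 32851 promoter sequences in the table held at least as many in their 250 bases before the start. Zic5 held 11, at a ratio of 0.458, a count reached by 35.6% of promoters. Zic4 held 4, at a ratio of 0.376, against a median of 6 over the table. Its listed start lies inside a longer gene model, and its sequence is not shown. In RefSeq the protein-coding gene Clybl precedes Zic5 and Zic2 and Pcca follows them, while Tbc1d2b precedes Zic1 and Zic4 and Plscr5 follows them.

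Ring1B occupied both pairs with many separate intervals. In the window of Zic5 and Zic2, 11 Ring1B intervals covered 19.6 kb, or 24.5% of its 80 kb. In the window of Zic1 and Zic4, 10 intervals covered 17.7 kb, or 16.1% of its 110 kb. Tiles of 80 kb laid end to end along the chromosomes were covered by Ring1B to 0.680% on average and held a mean of 0.364 Ring1B intervals. No Ring1B interval lay in 77.2% of them. The intervals did not fill the windows evenly. On chromosome 14 they lay between 122851918 and 122890569, a span of 38.7 kb of which 50.6% was covered. On chromosome 9 they lay between 91245330 and 91301459, a span of 56.1 kb of which 31.6% was covered.

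**Figure D1:**
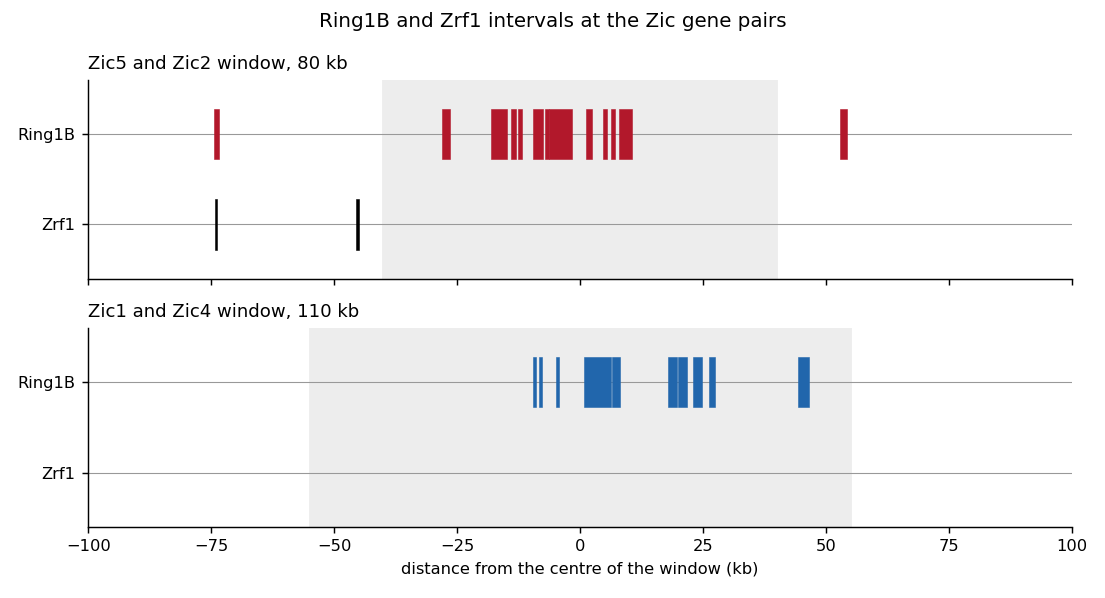
Positions of the deposited Ring1B intervals (coloured boxes) and Zrf1 intervals (black boxes) within 100 kb of the centre of each window, with distance from the centre in kb on the horizontal axis and the window in grey. The 11 and 10 Ring1B intervals of the windows lie in the grey areas with no Zrf1 interval, and the 2 Zrf1 intervals drawn lie outside the window of Zic5 and Zic2. Ring1B intervals drawn outside that window, on both sides of it, are not members.

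At Zic5 and Zic2 the intervals formed 1 dense block with a lone interval before it. The lone interval ran from 122851918 to 122853573 (1655 bp) and was followed by a gap of 8256 bp. The block then held 10 intervals from 122861829 to 122890569, none more than 5 kb from the next. Its widest interval, from 122873750 to 122878335, measured 4585 bp, which placed it at rank 150 of the 11790 Ring1B widths. It was preceded after only 33 bp by an interval of 838 bp, the shortest gap at either pair. The next widest were an interval of 3359 bp opening the block at 122861829 and an interval of 2616 bp closing it at 122890569. These 3 wide intervals were thus spread over the start, middle and end of the block. Intervals of 1882 bp (122870483 to 122872365) and 1304 bp (122881128 to 122882432) lay between them, and the other 4 of the block ranged from 666 to 1075 bp.

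At Zic1 and Zic4 the intervals were more scattered. The first 3, between 91245330 and 91250770, were all narrow, with widths of 664, 619 and 655 bp, and 2.66% or less of the Ring1B list was narrower than any of them. A gap of 5110 bp led to the widest interval at either pair, from 91255880 to 91261293, with 5413 bp and rank 99 in the list. An interval of 1553 bp followed after 173 bp. After a further 9774 bp came 4 intervals between 91272793 and 91282424, with widths of 1860, 1852, 1814 and 1232 bp. The last interval stood apart by 16974 bp, from 91299398 to 91301459, and measured 2061 bp. The locus therefore joined its narrowest intervals on one side with 1 very wide interval and a group of similar, moderately wide ones.

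By rank, the widths at both pairs spread over most of the Ring1B list, from 1.52% to 99.2% of it narrower. The median width of the 21 intervals was 1553 bp and their quartiles were 838 and 1882 bp. In the list the quartiles were 987 and 1764 bp around a median of 1324 bp. The median was 1304 bp at Zic5 and Zic2 and 1684 bp at Zic1 and Zic4, where 5 of 11 and 6 of 10 intervals were wider than the list median. Both tails were occupied, with 7 of 21 below the lower quartile of the list and 9 of 21 above its upper quartile. Intervals of at least 4000 bp made up 2 of the 21, and 1.93% of the list. Neighbouring intervals of a locus share their source and width is not a measure of signal strength, so the widths are given without a test.

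**Figure D2:**
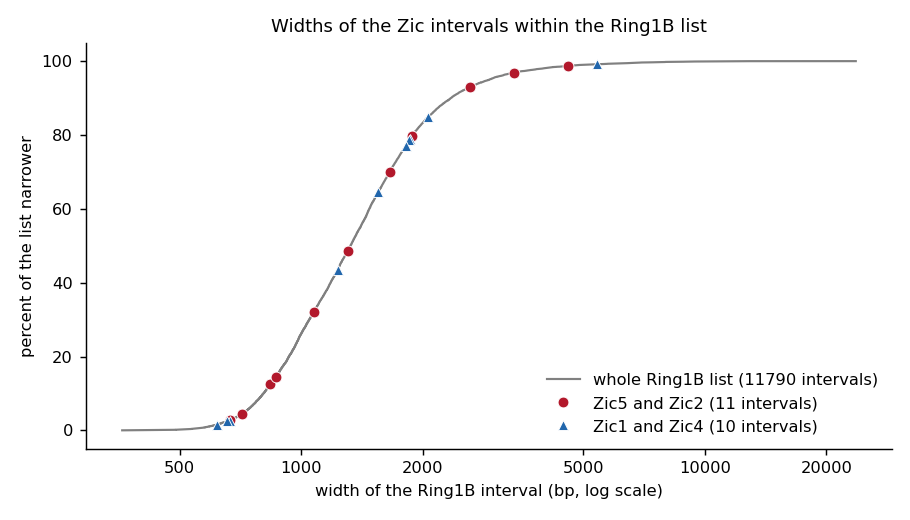
Width of each Zic interval in bp (log scale) against the percent of the Ring1B list that is narrower, with the grey line giving the whole list of 11790 intervals. Circles are the 11 intervals of Zic5 and Zic2 and triangles the 10 of Zic1 and Zic4; 1 interval of each pair, of 4585 and 5413 bp, lies near the top of the curve and several narrow ones near the bottom.

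The Zic intervals lay close together. The 19 gaps between neighbouring Zic intervals had a median of 1.18 kb and ran from 33 to 16974 bp. The median gap of the whole list was 60.4 kb. Of the Zic gaps, 9 were at most 1 kb (47.4%), and 15 were at most 5 kb (78.9%), against 8.35% and 14.7% in the list. Gaps among 10 or 11 intervals inside windows of 110 or 80 kb must be short, so this contrast with the list follows largely from the windows, and gaps inside other dense regions were not compared.

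Joined across gaps of at most 5 kb, the 11790 Ring1B intervals gave 10054 runs. The block of 10 at Zic5 and Zic2 covered 17.9 kb of its 28.7 kb and ranked 13 by covered sequence. Only 4 runs had more intervals, and 6 had at least as many, the Zic block included. This rank rested on the limit of 5 kb. With gaps of at most 2 kb the block gave 3 runs of 3 intervals and 1 lone interval. Those 3 runs ranked 125, 248 and 366 of 10559 by covered sequence, and 74 runs had more intervals than each of them. Zic1 and Zic4 gave 4 runs of 3, 2, 4 and 1 intervals, which covered 1.94, 6.97, 6.76 and 2.06 kb and ranked between 155 and 2381. Their division likewise depended on the limit, since the gap before the widest interval was 5110 bp. With gaps of at most 10 kb 9 of the 10 intervals formed a single run of 37.1 kb that ranked 28 of 9437 by covered sequence. The limits of 2 and 10 kb were chosen after the data had been seen.

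**Figure D3:**
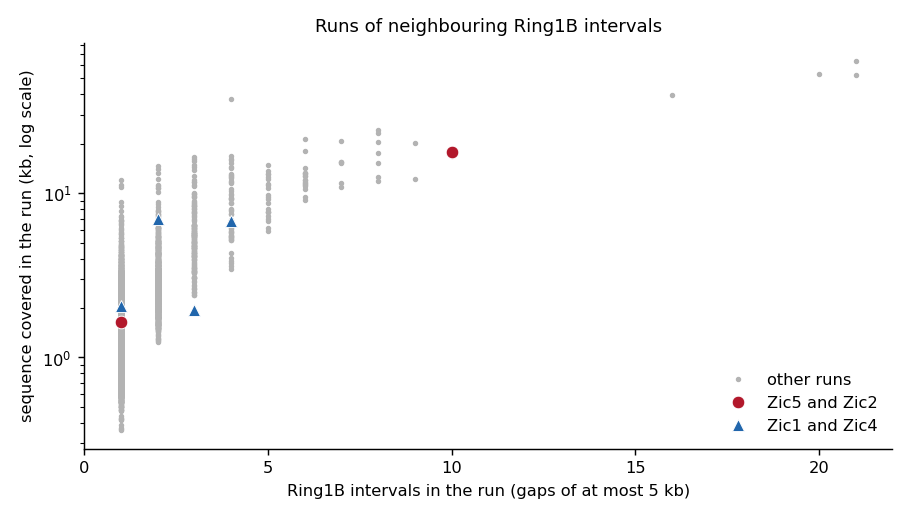
Each point is a run of Ring1B intervals with gaps of at most 5 kb, by the number of intervals in it (horizontal axis) and the sequence they cover in kb (vertical axis, log scale). The block of 10 at Zic5 and Zic2 (circle) lies beyond nearly all grey runs in number, while the 4 runs at Zic1 and Zic4 (triangles) hold 1 to 4 intervals.

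Set beside stretches of equal length, both pairs belonged to the densest Ring1B regions of the list. The windows had been chosen with earlier results of these data known, so this rank is a description only. Of 32925 tiles of 80 kb, 9 (0.0273%) held at least the 11 intervals of Zic5 and Zic2, and 16 (0.0486%) had at least as many covered bases. Of 23946 tiles of 110 kb, 15 (0.0626%) held at least the 10 intervals of Zic1 and Zic4, and 17 (0.0710%) had at least as many covered bases. One tile over Zic1 and Zic4 itself was among these 15. A fixed grid can cut through a dense region, while the Zic windows contain theirs whole. When windows were instead allowed to start at any Ring1B interval, 10 separate places held at least 11 intervals in 80 kb, and 31 held at least 10 in 110 kb. Those counts include the place at Zic5 and Zic2 among the 10 and both Zic pairs among the 31. By covered bases, 19 places reached the value of Zic5 and Zic2 and 36 that of Zic1 and Zic4. Of these, 1 and 2 lay at the Zic pairs.

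The tiles nearest to each window in covered bases held fewer intervals than it did. For Zic5 and Zic2 the difference was slight on chromosomes 4 and 13, with 10 intervals against 11. For Zic5 and Zic2 they were chromosome 14 from 63840000 (5 intervals covering 18.9 kb), chromosome 4 from 88400000 (10 intervals, 18.5 kb) and chromosome 13 from 40800000 (10 intervals, 20.6 kb). For Zic1 and Zic4 they were chromosome 2 from 38170000 (5 intervals, 17.3 kb), chromosome 9 from 62920000 (4 intervals, 17.3 kb) and chromosome 12 from 58630000 (5 intervals, 17.2 kb). In these 3 tiles of a fixed grid, similar coverage was thus reached with fewer, wider intervals than at Zic1 and Zic4. The contrast depends on how neighbouring intervals were split. Merging across gaps of at most 1 kb left 7 intervals at Zic1 and Zic4, and the tiles were not merged. Of these 6 tiles, the one on chromosome 14 held no Zrf1 interval and the others held 1 to 3.

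No Zrf1 interval was called in either window, so none of the 21 Ring1B intervals overlapped one. Over the whole list 16.6% of Ring1B intervals overlapped Zrf1 by at least 1 bp. For 21 intervals a count of 0 allows a share of up to 14.3% (3 counts of 21), or up to 16.1% by the exact (Clopper-Pearson) 95% interval. Both limits cover counting error only and treat neighbouring intervals as independent, which they are not. They lie so near 16.6% that 21 intervals from 2 loci show little about a difference. Absence of a called interval is not absence of Zrf1, since depth and calling threshold are unknown.

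Tiles without a Zrf1 interval were common in general. Their share fell as Ring1B intervals rose from 1 to 4 per tile, but did not move one way among the few densest tiles. Of tiles of 80 kb, 2734 of 4909 with 1 Ring1B interval and 54 of 206 with 4 held none. For tiles of 110 kb these counts were 1969 of 3958 and 61 of 283. Of all tiles of 80 kb, 76.2% held no Zrf1 interval, and of all tiles of 110 kb, 70.8%. Among tiles with at least 5 Ring1B intervals, 27.6% (58 of 210) of the shorter and 16.7% (49 of 294) of the longer held none. Among tiles with at least as many Ring1B intervals as the Zic windows, 6 of 9 and 5 of 15 held none. Of those 5, 1 lay over Zic1 and Zic4 itself. The 6 of the shorter length were those with 14 or more Ring1B intervals, and the other 3, with 11 or 12, each held Zrf1. For windows placed freely the numbers without Zrf1 were 5 of 10 and 7 of 31 by interval count. By covered bases they were 10 of 19 and 14 of 36. The Zic pairs themselves are among these places. They make up 1 of the 10, 2 of the 31, 1 of the 19 and 2 of the 36. Dense Ring1B regions without a Zrf1 interval, such as the Zic pairs, were therefore found alongside others that had one.

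**Figure D4:**
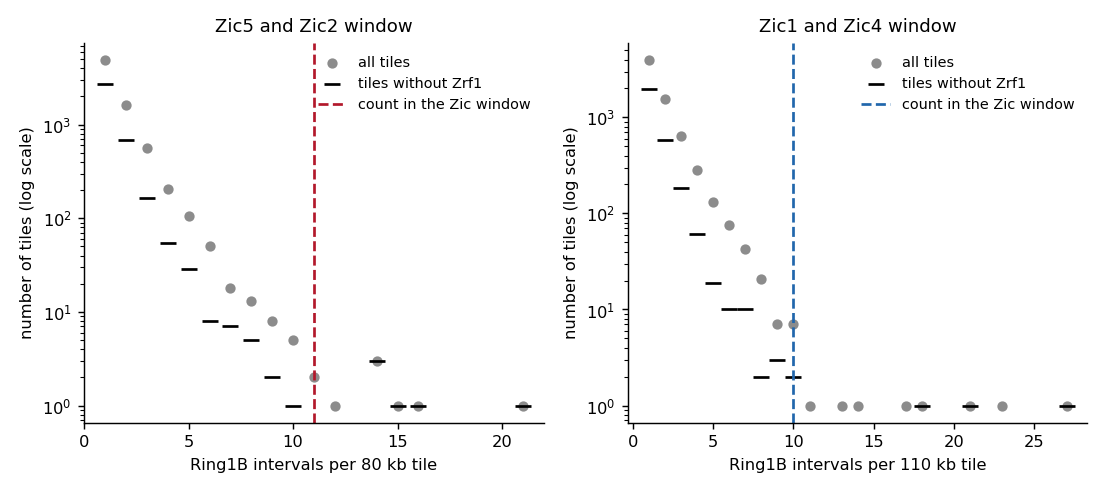
Number of tiles (log scale) by the number of Ring1B intervals they hold, for tiles of 80 kb (left) and 110 kb (right); grey points are all tiles with at least 1 Ring1B interval, and black dashes those without a Zrf1 interval. The vertical dashed lines mark the 11 and 10 intervals of the Zic windows, which only 9 and 15 tiles reach.

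The surroundings of the pairs differed. Near Zic5 and Zic2, a Zrf1 interval of 754 bp (122834363 to 122835117) ended 4.88 kb before the window and 16.8 kb before the first Ring1B interval in it. Further out, a Ring1B interval of 1049 bp (122805474 to 122806523), 45.4 kb before the first interval of the window, did overlap Zrf1. It was the only one of the 3 Ring1B intervals within 500 kb before the window to do so. The 3 Ring1B intervals within 500 kb after the window were without Zrf1, where the nearest Zrf1 interval lay 975 kb beyond the last Ring1B interval of the window. The 11 Ring1B intervals were thus 16.8 to 52.8 kb from Zrf1, a range that includes the list median of 28.7 kb.

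Around Zic1 and Zic4 no other interval was called over a long stretch. No interval of either list lay within 500 kb of the window on either side. The nearest other Ring1B intervals were 1145 kb before the first and 1135 kb after the last of the 10, and 3.87% and 3.95% of the 11770 gaps in the Ring1B list were at least that long. The 10 intervals were 767 to 818 kb from the nearest Zrf1 interval. Only 1.93% of the Ring1B list (228 intervals, these included) lay as far as 767 kb or farther from Zrf1. Neither window had a called Zrf1 interval, but one was called just outside the window of Zic5 and Zic2, and none near that of Zic1 and Zic4.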

How the data were processed

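Peak positions in mm9 were analysed for 1 Ring1B and 1 Zrf1 ChIP-seq library of 3 in the series. The authors deposited each list as chromosome, start and end, with no score. Bowtie 0.12.7 (read alignment) and MACS 1.4.2 (peak calling) are named in the submitters' processing notes. The sources used here give no calling threshold, control or filter, nor whether starts count from 0 or 1. The antibody in the name of a list tied it to its library. Members were all intervals overlapping a window by at least 1 bp. They were described singly, with the 3 tiles nearest in covered bases for likeness. The windows and comparisons were chosen with earlier results of these data known. Width was end minus start. Tiles ran from position 0 of each chromosome to its last Ring1B interval. Freely placed windows began at a Ring1B interval, were taken highest first and did not overlap; they and the distances to neighbours were added after the data had been seen. No test was run, since each antibody had 1 library. The depth of the libraries is unknown. Zic2 had no promoter entry. In a simulated list of 2000 intervals the overlap count found 286 of the 286 pairs that had been placed. Its count on the lists equalled that of bedtools 2.31.1. Scripts ran in Python 3.11.15 with SciPy 1.17.1 for binomial intervals, NumPy 2.4.6 for quartiles and matplotlib 3.10.9 for plots.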

Additional observations from a re-analysis of the deposited data

How the results depend on the processing

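Depth is unknown, so a missing interval cannot be told from a weak one. No paired analysis was possible because each antibody had 1 library. Of 48 values under alternatives, 20 moved. Counts were taken as moved beyond 1.5 times, tile shares outside their exact 95% binomial interval, and widths and covered bases at any difference. Merging across gaps of at most 1 kb left 5 Ring1B intervals at Zic5 and Zic2, covering 23044 bp with a median width of 5940 bp, and at Zic1 and Zic4 it left 7 intervals, 18760 bp and a median of 1912 bp. Requiring at least the median width of the list left 5 intervals and 14097 bp at Zic5 and Zic2, and 6 and 14553 bp at Zic1 and Zic4. Mean widths were 1778 and 1772 bp. Widening the windows by 20 kb brought in 1 Zrf1 interval at Zic5 and Zic2 and none at Zic1 and Zic4. No Ring1B interval of either window lay within 5 kb of Zrf1. Among tiles with at least 1 Ring1B interval, 0.12% and 0.213% reached the count and the covered bases of Zic5 and Zic2, and 0.223% and 0.253% those of Zic1 and Zic4. Tiles laid from the midpoint of the first tile gave 0.121% for the covered bases of Zic1 and Zic4 and 0.0919% for their count, and the cause was not tested. With gap limits of 2 and 10 kb, both chosen after the data had been seen, Zic5 and Zic2 gave 5 and 1 runs in place of 2, and Zic1 and Zic4 gave 5 and 2 in place of 4. Merging, the width minimum, wider windows, the mean and the gap limits change the values by their own construction.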
